A study of Mus musculus with 38 samples.

Results

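The enzymes of amino acid breakdown, the urea cycle and a few linked synthesis and transport steps were followed in livers of mice treated with a hepatocarcinogen, with and without the receptor c-Met in hepatocytes. The set is a list of 41 gene symbols, and every probe that carries one of these symbols in the platform annotation was taken. This gave 59 probes for 39 genes, of 36607 probes on the array, of which 26926 carry 1 gene symbol. Sds and Gls2, enzymes of serine and glutamine breakdown, had no probe under their symbols and were not analysed here. Of the 39 genes, 25 had 1 probe and 14 had more, up to 4, and counts of genes use the first probe in the order of the deposited table.

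There were 4 groups of 5 male mice. The 5-month knockouts carried Alb-Cre +/-; Met Fl/Fl on a 129SV/C57BL6 background, per the labels, at an age of 20 weeks. The 5-month controls carried Alb-Cre +/- alone on a B6129 background, also at 20 weeks. The 3-month knockouts and 3-month controls had these same genotypes at 12 weeks. All mice, controls included, had received 10 µg per g of body weight of N-nitrosodiethylamine (DEN), which alkylates DNA in hepatocytes, at 14 days of age. The ages in weeks are shorter than 3 and 5 months counted from that dose, so the time since it is not settled, and both genotype and background differ between the groups by label. The albumin promoter drives Cre in hepatocytes, and which other cells of the liver keep Met was not measured. RNA of each liver was hybridised on 2-colour arrays against RNA pooled from 5 wild-type male B6129 livers aged 12 weeks.

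All values are log2 ratios of liver over that pool, 1 per mouse, averaged over both dye orientations in 18 mice. The 5-month knockout mice 2 and 3 had 1 array each. The sources do not state which dye is the numerator, and Cy5 over Cy3 was taken as likely; were it the other way round, every direction given here would turn. A ratio gives no absolute level, so levels of different genes cannot be compared, and in whole liver fewer cells of a type and less RNA per cell cannot be told apart. The Met probe did not separate the genotypes, at -0.78 ± 0.45 in 5-month knockouts and -0.73 ± 0.30 in 5-month controls (SD, n = 5 each). At 3 months it stood at -0.39 ± 0.38 in knockouts and -0.81 ± 0.18 in controls (SD, n = 5 each). Whether this probe lies in the deleted part of the gene is not known here, so it does not check the labels. Each age was hybridised in array series of its own (runs of consecutive experiment numbers in the titles), so age and array series cannot be told apart and levels were not tested between ages. The genotype differences of both ages were tested against each other, and that contrast also sets different array series side by side. The labels number the mice as repeats of a group.

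Amino acids that are not built into protein are broken down mostly in hepatocytes. Transaminases and dehydrogenases remove the nitrogen, the urea cycle turns ammonia into urea for excretion, and the carbon skeletons enter glucose synthesis or the citric acid cycle. Many of these genes are induced by glucocorticoids, glucagon and a protein-rich diet, and their RNA is a common measure of the mature metabolic state of hepatocytes. Asns, Psat1 and Phgdh stand apart, because they build amino acids and are targets of ATF4, the transcription factor of the amino acid response.

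At 5 months the enzymes were mostly higher in knockout than in control livers, and no single one passed the test. The log2 difference was above 0 for 33 of 39 genes and below 0 for 6, where 52.3% of all probes lay above 0. Of the 14 genes with more than 1 probe, 7 had probes of opposite sign at 5 months and 3 at 3 months. For these genes the sign depends on the probe taken. The median over the 39 genes was 0.25, against 0.01 over all probes. In limma's moderated test adjusted over all probes, 0 of 39 were called at an adjusted p under 0.05 (background 0.145% of probes), the smallest adjusted p being 0.0706 for Hpd, and the methods' t-test called 0 at its own threshold. At an unadjusted p under 0.05, 19 of 39 stood out, all of them higher in knockouts, which is 48.7% of the genes against 10.5% of all probes in either direction, 7.07% higher and 3.41% lower. Because all the enzymes share livers and arrays, these 19 are not independent of each other.

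At 3 months the genotypes were closer. The difference was above 0 for 25 of 39 genes (45.5% of all probes) and the median was 0.08, against -0.02 over all probes. Again 0 of 39 were called by limma (background 0.0355%), with a smallest adjusted p of 0.0961 for Csad. An unadjusted p under 0.05 was reached by 4 genes, 10.3% of the set against 7.96% of all probes: Bckdhb, Asns and Prodh higher in knockouts (2.14% of all probes) and Csad lower (5.82%). The methods' t-test called Csad at its own threshold and none after Benjamini-Hochberg adjustment. The share of all probes at that threshold is not given here for either age, so these counts have no comparison.

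**Figure D1:**
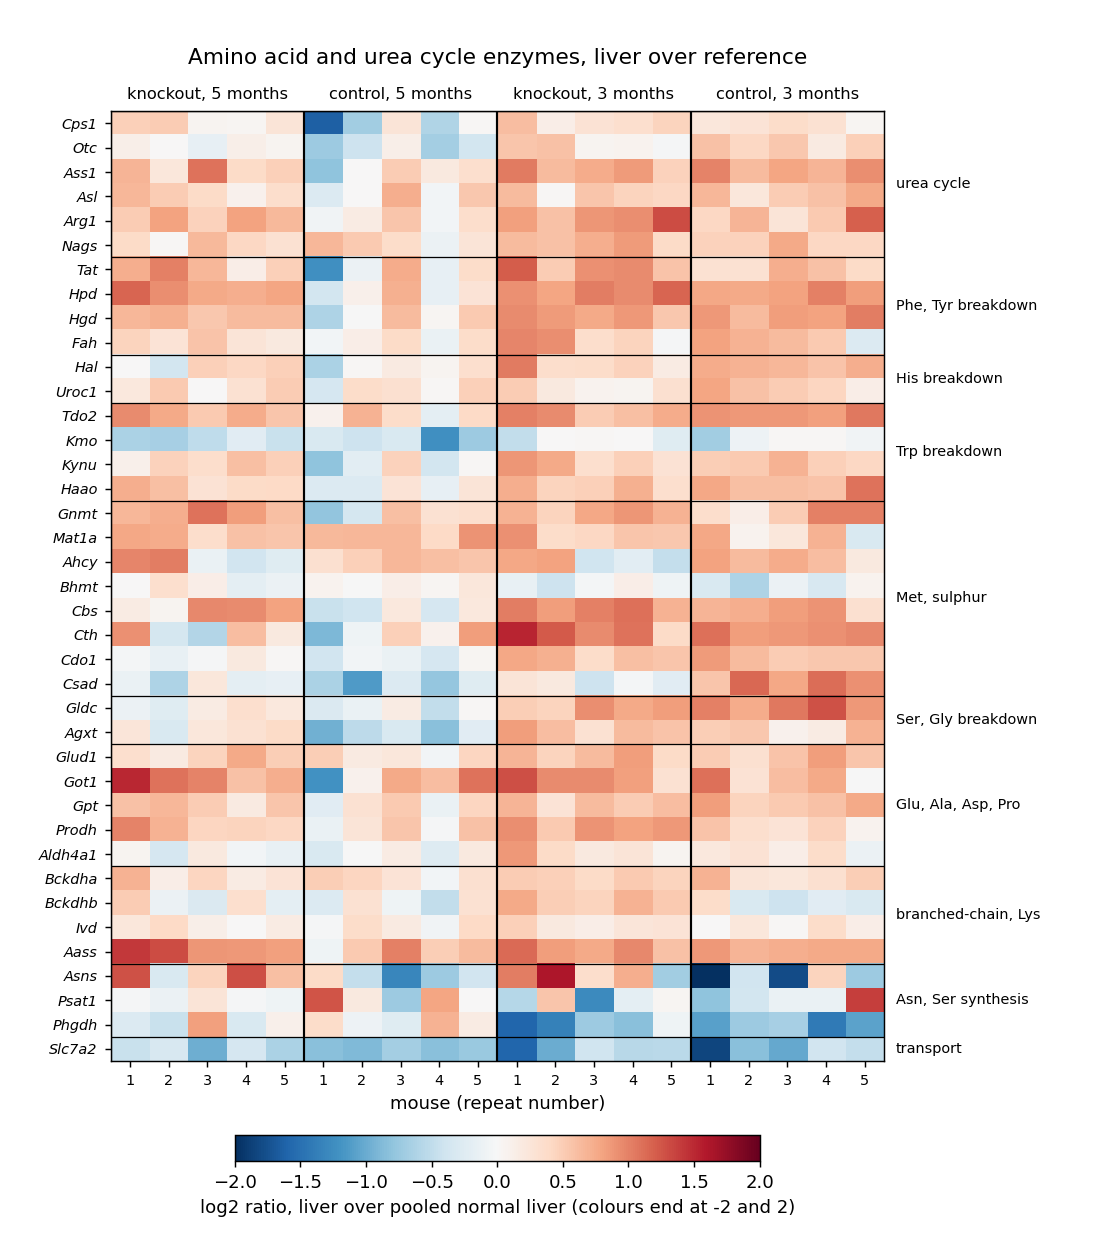
Log2 ratio of liver over pooled normal liver for the 39 measured enzymes (rows, first probe, grouped by role) in the 20 mice (columns, by group and repeat number). Group means are above the pool for 33 of 39 rows in 5-month knockouts and 23 in 5-month controls. They are above it for 33 in 3-month knockouts and 32 in 3-month controls. The 5-month control mice 1, 2 and 4 have the lowest medians, at -0.29, -0.00 and -0.11.

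The difference at 5 months came with low values in some control mice. The median over the 39 enzymes was 0.47, 0.27, 0.38, 0.33 and 0.38 in 5-month knockout mice 1 to 5, and -0.29, -0.00, 0.28, -0.11 and 0.32 in 5-month control mice 1 to 5. Control mice 3 and 5 thus lay within the range of the knockouts, while control mice 1, 2 and 4 lay below all of them. The value of control mouse 4 rests in part on a liver-in-Cy5 array that is described below. Among mice with both orientations, only this mouse had a lower median with the liver in Cy5 (-0.19) than in Cy3 (-0.02). With the liver in Cy3 it lay below the 0.10 to 0.27 of knockout mice 1, 4 and 5. In 3-month knockouts the medians ran from 0.39 to 0.77, and in 3-month controls from 0.44 to 0.59, so these groups overlapped. The mean of the 5 medians was 0.37 ± 0.07 in 5-month knockouts and 0.04 ± 0.26 in 5-month controls. It was 0.54 ± 0.15 in 3-month knockouts and 0.51 ± 0.06 in 3-month controls (SD, n = 5 each). As a description across array series, the 5-month control mean was the lowest of the 4 group means for 29 of 39 genes, that of 5-month knockouts for 1, that of 3-month knockouts for 2 and that of 3-month controls for 7. Medians over all probes ran from -0.16 to 0.20 in the 20 mice. Without 5-month control mouse 1 the number of genes at an unadjusted p under 0.05 was 12 in place of 19. The share of all probes without that mouse is not given here.

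**Figure D2:**
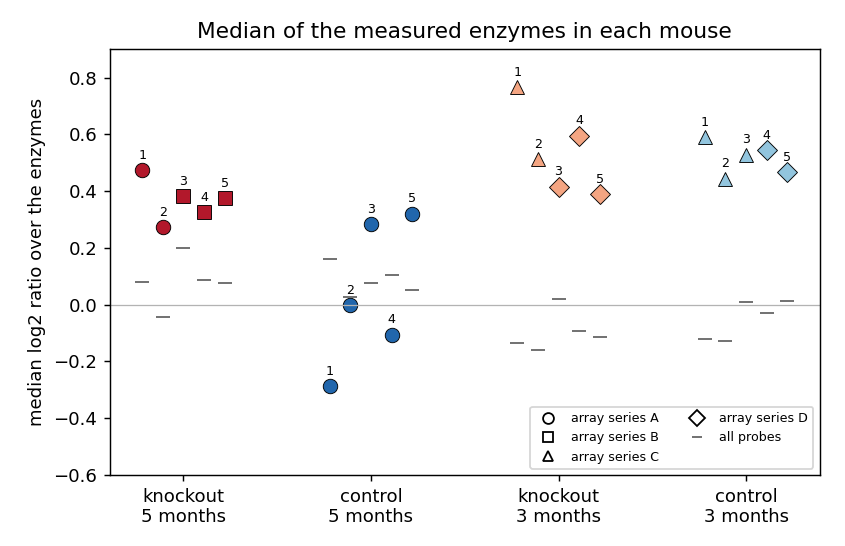
Median log2 ratio over the 39 measured enzymes in each mouse (symbols with the repeat number; shape gives the array series) and over all probes (dashes). The 5-month knockouts lie between 0.27 and 0.47, and the 5-month controls spread from -0.29 to 0.32.

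Position relative to the pool depended on the dye. Medians of the enzymes were taken apart by orientation in mice with both. In 5-month knockout mice 1, 4 and 5 they were 0.50 to 0.63 with the liver in Cy5 and 0.10 to 0.27 in Cy3. In the 5-month controls they were -0.19 to 0.55 and -0.54 to 0.19. Knockout mice 2 and 3, with 1 array each, are not in these ranges. The genotype difference, which compares arrays of the same orientation, was steadier. Of the 59 probes, 50 had the same sign of the 5-month difference in both orientations, 41 higher and 9 lower in knockouts. At 3 months 49 did, 33 higher and 16 lower. Of the whole array, 55.1% of probes did so at 5 months and 57.2% at 3 months. Across the 59 probes, which share arrays, the differences in the orientations correlated at r = 0.55 at 5 months and 0.86 at 3 months, where over all probes r was -0.01 at 5 months and 0.18 at 3 months. For 5-month control mouse 4, the array with the liver in Cy5 was looked at singly. Its values correlated at -0.61 to -0.48 with the 3-month liver-in-Cy5 arrays. With the other array of its own mouse, turned to liver over pool, they correlated at 0.70. Such correlations are not given for other arrays, so these have no comparison. Whether the sign of this array is inverted was not tested. Without this array the 5-month median of the enzymes was 0.15 in place of 0.25, with 31 of 39 genes higher and 16 at an unadjusted p under 0.05. The shares of all probes in that fit are not given here, so these counts have no comparison.

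**Figure D3:**
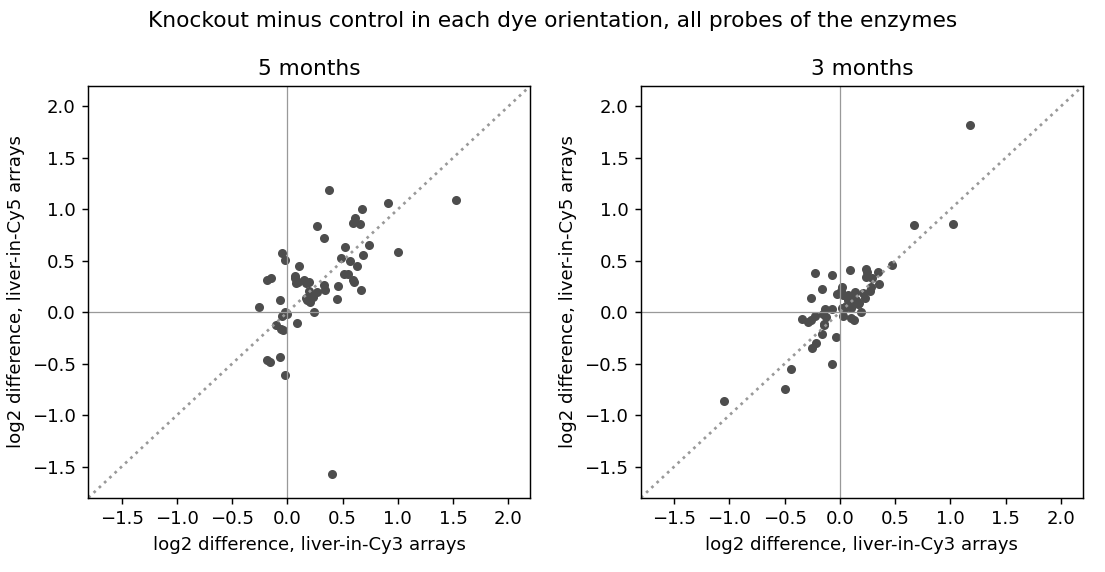
Log2 difference of knockout minus control in the liver-in-Cy3 arrays (horizontal) and in the liver-in-Cy5 arrays (vertical) for the 59 probes at each age; the dotted line marks equal values. At 5 months 50 of 59 points have the same sign on both axes, and at 3 months 49.

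Array series divide the knockouts and not only the ages. At 5 months all controls and knockout mice 1 and 2 were in one series, called A here, and knockout mice 3 to 5 in the next, B. Within series A the median difference was 0.41, with 32 of 39 genes higher and 9 at an unadjusted p under 0.05 (14.0% of all probes); 7 of the 39 genes had the opposite sign there from the comparison over all mice. With series as a term in the model, which leaves the 5-month comparison to series A, the median was also 0.41 and 15 genes were at an unadjusted p under 0.05 (background 9.4%, with 43.4% of probes above 0). At 3 months series C held control mice 1 to 3 and knockout mice 1 and 2, and series D the rest. The median was 0.10 with 30 of 39 genes higher within C, and -0.04 with 18 of 39 higher within D; 9 of 39 genes within C and 7 of 39 within D had the opposite sign from the comparison over all mice.

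**Figure D4:**
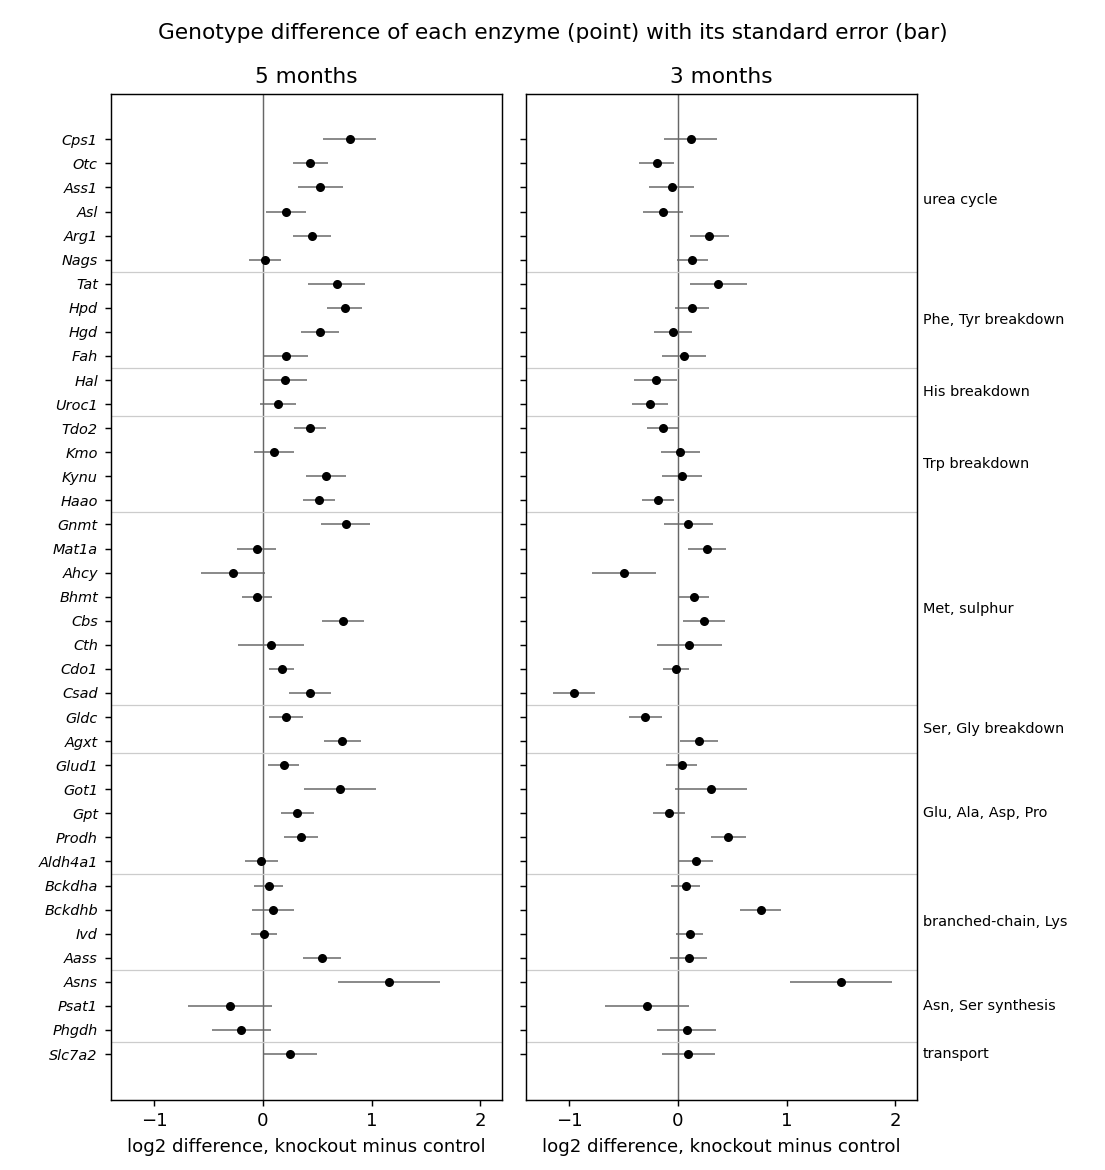
Log2 difference of knockout minus control for the 39 measured enzymes at 5 months (left) and 3 months (right), grouped by role; points are the limma estimates and bars 1 standard error. At 5 months 33 of 39 points lie above 0, and at 3 months 25.

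On their first probes all 6 urea cycle genes lay above 0 at 5 months, with a median difference of 0.44, and 4 of them had an unadjusted p under 0.05. Cps1, which makes carbamoyl phosphate from ammonia and is the entry step, averaged 0.27 ± 0.22 in 5-month knockouts and -0.53 ± 0.74 in 5-month controls (SD, n = 5 each). Its log2 difference was 0.80 ± 0.24 (SE, adjusted p = 0.257). Control mouse 1, at -1.64, was the lowest value of the gene, and control mouse 3, at 0.25, lay among the knockouts, which ran from 0.04 to 0.51. For Ass1, which joins citrulline to aspartate, the probes differed by 0.53 ± 0.21 and 0.84 ± 0.27 (SE, adjusted p = 0.372 and 0.282). Arg1, arginase, which releases urea, differed by 0.45 ± 0.18 (SE, adjusted p = 0.365). Smaller differences were seen for Asl, argininosuccinate lyase, at 0.19 to 0.22 over 3 probes. Nags, which makes the allosteric activator of Cps1, lay at -0.09 to 0.02 over 3 probes. At 3 months the group median was 0.03, with 3 of 6 genes on each side of 0.

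Otc, the X-linked enzyme that forms citrulline, was named by its difference between ages. It measured 0.11, 0.01, -0.16, 0.11 and 0.06 in 5-month knockout mice 1 to 5, against -0.72, -0.41, 0.12, -0.68 and -0.36 in 5-month control mice 1 to 5. It measured 0.55, 0.59, 0.05, 0.07 and -0.03 in 3-month knockouts, against 0.59, 0.42, 0.54, 0.18 and 0.47 in 3-month controls. At 5 months 4 of 5 controls lay below every knockout, while at 3 months the knockouts of array series C lay with the controls and those of series D below all of them. The differences were 0.44 ± 0.16 at 5 months (SE, adjusted p = 0.341) and -0.19 ± 0.16 at 3 months (SE, adjusted p = 0.829), the 3-month value being 0.05 within series C and -0.29 within series D. The 5-month difference minus the 3-month difference was 0.63 ± 0.23 (SE, adjusted p = 0.533).

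The 4 enzymes of phenylalanine and tyrosine breakdown had the highest group median at 5 months, 0.60, against 0.09 at 3 months. Hpd, which oxidises 4-hydroxyphenylpyruvate, came closest to the threshold of all 39 genes. It measured 1.16, 0.93, 0.75, 0.72 and 0.79 in 5-month knockout mice 1 to 5, against -0.36, 0.10, 0.71, -0.16 and 0.28 in 5-month control mice 1 to 5. Every knockout lay above every control, narrowly so over control mouse 3. On first probes this held for Hpd and Haao among the 39 genes, and it held for 2.59% of all probes. It also held for probe 3 of Slc7a2, at -0.29 to 0.02 in knockouts and -0.98 to -0.34 in controls. No member had every knockout below every control at 5 months (1.33% of all probes). The log2 difference of Hpd was 0.75 ± 0.16 (SE, adjusted p = 0.0706), and within array series A it was 0.93 ± 0.27 (SE, adjusted p = 0.232). Without control mouse 3 it was 0.90 with an adjusted p of 0.0136, and over all mice left out in turn the adjusted p ran from 0.0136 to 0.227. At 3 months Hpd ran from 0.79 to 1.16 in knockouts and from 0.76 to 1.01 in controls, a difference of 0.13 ± 0.16 (SE, adjusted p = 0.904).

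Upstream and downstream of Hpd the same control mice were low. Tat, tyrosine aminotransferase, a glucocorticoid-induced gene, measured 0.72, 1.00, 0.66, 0.13 and 0.48 in 5-month knockouts, against -1.23, -0.11, 0.74, -0.16 and 0.36 in 5-month controls. Its difference was 0.68 ± 0.26 (SE, adjusted p = 0.368), and 2 of the controls lay inside the range of the knockouts. Hgd, homogentisate dioxygenase, was tight in 5-month knockouts, at 0.64 ± 0.06, and wide in 5-month controls, at 0.11 ± 0.50 (SD, n = 5 each). Its difference was 0.53 ± 0.17 (SE, adjusted p = 0.287). Fah, the last enzyme of the pathway, differed by 0.21 ± 0.21 (SE, adjusted p = 0.815). The enzymes that open histidine breakdown gave small values at both ages: Hal 0.21 ± 0.20 at 5 months and -0.20 ± 0.20 at 3 months, and Uroc1 0.14 ± 0.16 at 5 months and -0.26 ± 0.16 at 3 months (SE). Within array series A the 5-month value of Hal was -0.18 ± 0.26 (SE).

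Tryptophan breakdown by the kynurenine route had a median difference of 0.48 at 5 months and -0.06 at 3 months over 4 genes. Haao, which makes the precursor of quinolinate, measured 0.73, 0.60, 0.29, 0.39 and 0.40 in 5-month knockout mice 1 to 5, against -0.27, -0.28, 0.28, -0.16 and 0.25 in 5-month control mice 1 to 5. The groups did not overlap, though knockout mouse 3 and control mouse 3 differed by little. The difference was 0.52 ± 0.15 (SE, adjusted p = 0.208), and its other probes gave 0.23 and 0.19 with overlapping groups. At 3 months Haao measured 0.73, 0.44, 0.48, 0.71 and 0.34 in knockouts, against 0.77, 0.60, 0.60, 0.57 and 1.09 in controls, a difference of -0.18 ± 0.15 (SE, adjusted p = 0.822). The 5-month difference minus the 3-month difference was 0.70 ± 0.21 (SE, adjusted p = 0.456).

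Tdo2, tryptophan dioxygenase, the entry step of the route, measured 0.94, 0.75, 0.52, 0.74 and 0.56 in 5-month knockouts, against 0.08, 0.70, 0.37, -0.20 and 0.40 in 5-month controls. Control mouse 2 lay inside the range of the knockouts and the other controls below it. In 3-month knockouts it measured 1.01, 0.95, 0.51, 0.60 and 0.74, against 0.90, 0.86, 0.87, 0.82 and 1.05 in 3-month controls. The differences were 0.43 ± 0.15 at 5 months (SE, adjusted p = 0.319) and -0.14 ± 0.15 at 3 months (SE, adjusted p = 0.884), and the difference between them was 0.57 ± 0.21 (SE, adjusted p = 0.547). The 3-month difference was 0.10 within series C and -0.32 within series D. Kynu, kynureninase, differed by 0.58 ± 0.18 at 5 months (SE, adjusted p = 0.275). Kmo, kynurenine monooxygenase, was at 0.10 on one probe and -0.14 on the other.

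Methionine and sulphur amino acid metabolism was mixed at 5 months, with 5 of 8 genes above 0 and a median of 0.13. Gnmt, which uses up S-adenosylmethionine by methylating glycine, measured 0.67, 0.72, 1.09, 0.83 and 0.60 in 5-month knockout mice 1 to 5, against -0.79, -0.35, 0.60, 0.31 and 0.33 in 5-month control mice 1 to 5. Control mouse 3 reached the lowest knockout, and the other controls lay below. The difference was 0.76 ± 0.23 (SE, adjusted p = 0.237), against 0.10 ± 0.23 at 3 months (SE, adjusted p = 0.962), where it was 0.24 within series C and -0.22 within series D. Mat1a, which makes S-adenosylmethionine in hepatocytes, stood at -0.06 ± 0.18 at 5 months and 0.27 ± 0.18 at 3 months (SE). Bhmt, which remethylates homocysteine with betaine, gave -0.06 and 0.28 on its probes at 5 months. Cdo1, cysteine dioxygenase, differed by 0.17 ± 0.12 at 5 months (SE, adjusted p = 0.667).

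Cbs, which condenses homocysteine with serine, measured 0.16, 0.05, 0.96, 0.95 and 0.81 in 5-month knockout mice 1 to 5, against -0.44, -0.40, 0.21, -0.34 and 0.21 in 5-month control mice 1 to 5. Knockout mice 3 to 5, all of array series B, were high, while knockout mice 1 and 2, which share series A with the controls, lay just below the highest controls. The difference over all mice was 0.74 ± 0.20 (SE, adjusted p = 0.171), and within series A it was 0.26 ± 0.23 (SE, adjusted p = 0.633). The other Cbs probe split the same way and differed by 0.56 ± 0.20 (SE, adjusted p = 0.335). Cth, the next enzyme toward cysteine, gave 0.08 and -0.08 on its probes, with SDs of 0.63 to 0.74 in 5-month knockouts and 0.64 to 0.66 in 5-month controls.

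Ahcy, which hydrolyses S-adenosylhomocysteine, split the knockouts of both ages on 1 of its 2 probes. It measured 0.97, 1.03, -0.13, -0.39 and -0.25 in 5-month knockout mice 1 to 5, against 0.32 to 0.66 in 5-month controls. It measured 0.78, 0.80, -0.40, -0.21 and -0.48 in 3-month knockout mice 1 to 5, against 0.19 to 0.81 in 3-month controls. At each age knockout mice 1 and 2 were high and knockout mice 3 to 5 low, and that split coincides with the array series. The difference on this probe was -0.27 ± 0.29 over all mice at 5 months and 0.48 ± 0.17 within series A (SE). Control mice of series D, at 0.61 and 0.19, did not fall as low as the knockouts of series D. On the other probe mice 1 and 2 were again the highest knockouts at each age, within narrower ranges of 0.00 to 0.15 in 5-month knockouts and 0.11 to 0.47 in 3-month knockouts. The difference on that probe was 0.185 ± 0.143 at 5 months and 0.03 ± 0.143 at 3 months (SE).

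Csad, which decarboxylates cysteine sulphinate on the way to taurine, was lower in knockouts at 3 months and higher at 5 months, without passing the test at either age. It measured -0.14, -0.62, 0.22, -0.20 and -0.16 in 5-month knockout mice 1 to 5, against -0.64, -1.14, -0.27, -0.77 and -0.24 in 5-month control mice 1 to 5. In 3-month knockout mice 1 to 5 it measured 0.26, 0.19, -0.42, -0.04 and -0.22, against 0.56, 1.15, 0.78, 1.12 and 0.91 in 3-month control mice 1 to 5. At 3 months every knockout lay below every control, which held for 0.929% of all probes and for no other member, while at 5 months the groups overlapped with knockouts mostly higher. The 3-month difference was -0.95 ± 0.19 (SE, adjusted p = 0.0961), with -0.61 ± 0.23 within series C and -1.24 ± 0.22 within series D (SE). At 5 months it was 0.43 ± 0.19 (SE, adjusted p = 0.432), and 0.235 ± 0.265 within series A (SE). The 5-month difference minus the 3-month difference was 1.39 ± 0.27 (SE, adjusted p = 0.412), the smallest adjusted p of that contrast among the 39 genes. The group means, which were not tested between ages, were -0.18 ± 0.30 in 5-month knockouts, -0.61 ± 0.38 in 5-month controls, -0.05 ± 0.28 in 3-month knockouts and 0.91 ± 0.25 in 3-month controls (SD, n = 5 each).

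**Figure D5:**
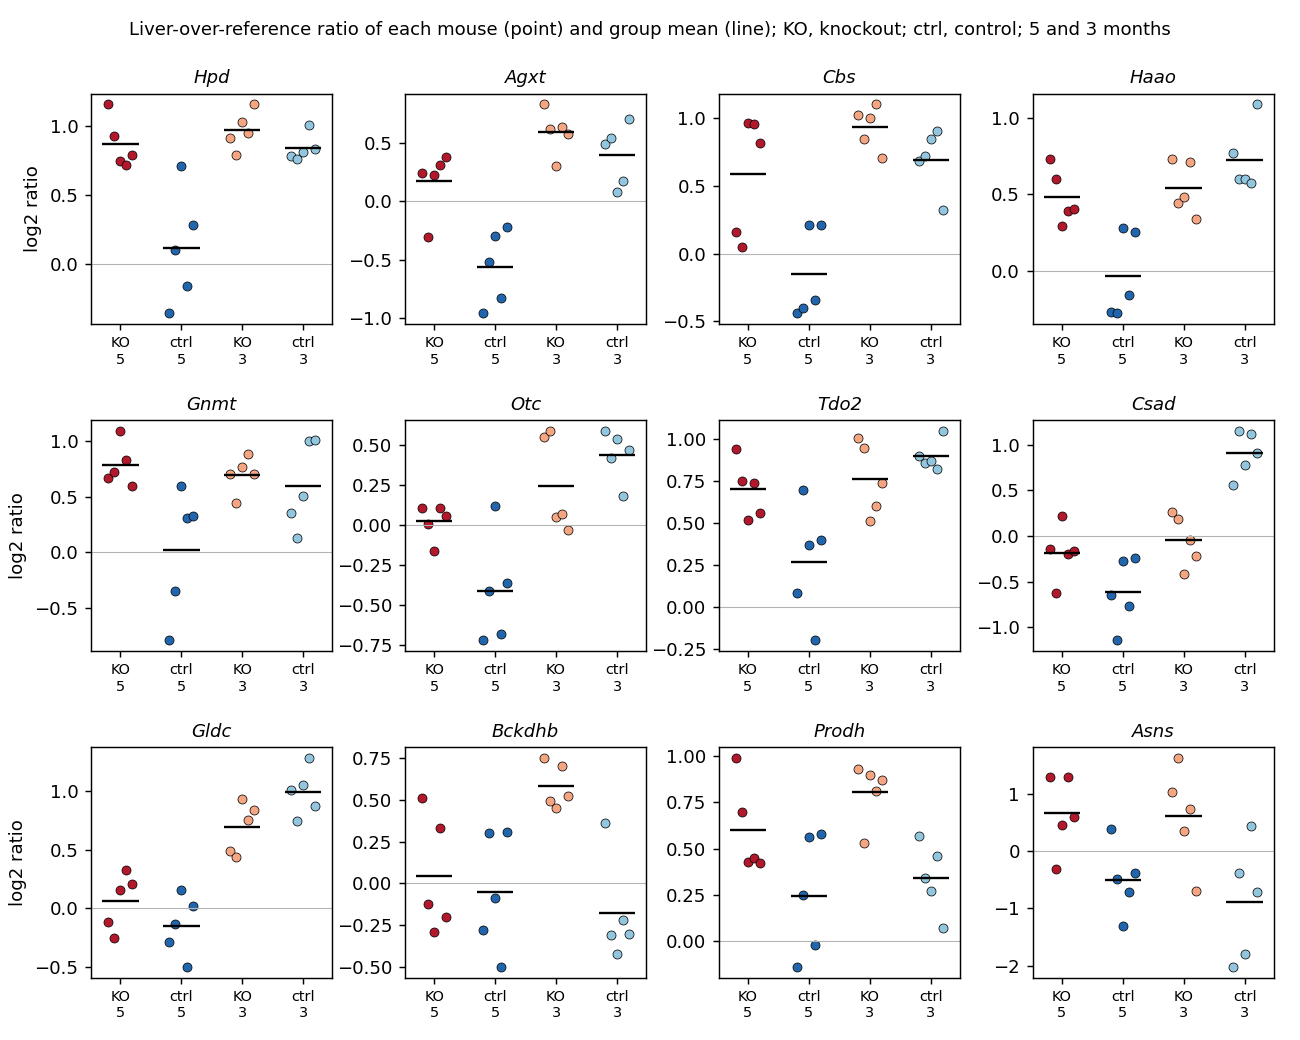
Log2 ratio of liver over pooled normal liver of each mouse (points) and the group mean (line) for the 12 genes with the smallest p in one of the 3 contrasts; KO is knockout and ctrl is control, with the age in months below. Hpd and Haao separate the genotypes at 5 months and Bckdhb and Csad at 3 months, and the other panels overlap at both ages.

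Serine and glycine breakdown was measured through Agxt and Gldc. Agxt, the peroxisomal enzyme that turns glyoxylate into glycine, measured 0.24, -0.31, 0.22, 0.31 and 0.38 in 5-month knockout mice 1 to 5, against -0.96, -0.52, -0.30, -0.83 and -0.22 in 5-month control mice 1 to 5. Of the knockouts 4 lay above every control, and knockout mouse 2, which had 1 array, lay among the controls. The difference was 0.73 ± 0.17 (SE, adjusted p = 0.116), larger with the liver in Cy5, at 1.19, than with the liver in Cy3, at 0.38. Without the mice with 1 array it was 0.87 (adjusted p = 0.129), and at 3 months it was 0.20 ± 0.17 (SE, adjusted p = 0.843).

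Gldc is the decarboxylase of the glycine cleavage system. It measured 0.49, 0.44, 0.93, 0.75 and 0.84 in 3-month knockouts, against 1.01, 0.74, 1.05, 1.28 and 0.87 in 3-month controls. The groups overlapped, and the difference was -0.30 ± 0.15 (SE, adjusted p = 0.668). At 5 months it was 0.22 ± 0.15 (SE, adjusted p = 0.699), with -0.25 to 0.33 in knockouts and -0.50 to 0.16 in controls, and within array series A it was -0.04 ± 0.21 (SE). Neither age reached an unadjusted p under 0.05.

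Among transaminases and proline enzymes 4 of 5 genes lay above 0 at 5 months, with a median of 0.32. Got1, cytosolic aspartate aminotransferase, differed by 0.71 ± 0.33 (SE, adjusted p = 0.464), with 0.58 to 1.51 in 5-month knockouts and -1.21 to 1.08 in 5-month controls. Gpt, alanine aminotransferase, differed by 0.32 ± 0.15 (SE, adjusted p = 0.475), and Glud1, glutamate dehydrogenase, by 0.19 ± 0.14 (SE, adjusted p = 0.705). Prodh, which opens proline breakdown, was higher in knockouts by a like amount at both ages. In 3-month knockouts it measured 0.93, 0.53, 0.90, 0.81 and 0.87, against 0.57, 0.34, 0.27, 0.46 and 0.07 in 3-month controls. Only knockout mouse 2 fell below a control. The difference was 0.46 ± 0.16 at 3 months (SE, adjusted p = 0.401) and 0.35 ± 0.16 at 5 months (SE, adjusted p = 0.446). Aldh4a1, the next proline step, was at -0.01 ± 0.15 at 5 months and 0.17 ± 0.15 at 3 months (SE).

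Branched-chain amino acid breakdown lay near 0 at 5 months, with Bckdha at 0.05 ± 0.13, Bckdhb at 0.09 ± 0.19 and Ivd at 0.01 ± 0.12 (SE). The other Ivd probe was at -0.088 ± 0.213 (SE). Bckdhb, a subunit of the branched-chain keto acid dehydrogenase, separated the genotypes at 3 months. It measured 0.75, 0.49, 0.45, 0.70 and 0.52 in 3-month knockout mice 1 to 5, against 0.36, -0.31, -0.42, -0.22 and -0.30 in 3-month control mice 1 to 5. Every knockout lay above every control, which held for 0.385% of all probes, and control mouse 1 was the nearest. The difference was 0.76 ± 0.19 (SE, adjusted p = 0.201), with 0.75 within series C and 0.82 within series D. Bckdha, its partner subunit, was at 0.07 ± 0.13 (SE, adjusted p = 0.948). Aass, which starts lysine breakdown, differed by 0.55 ± 0.17 at 5 months on 1 probe (SE, adjusted p = 0.269) and by 0.30 and 0.17 on the others.

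Asns, which makes asparagine from aspartate, had the largest differences of the 39 genes in both ages and also wide groups. On its first probe it measured 1.28, -0.31, 0.45, 1.29 and 0.60 in 5-month knockout mice 1 to 5, against 0.39, -0.48, -1.31, -0.72 and -0.38 in 5-month control mice 1 to 5. In 3-month knockout mice 1 to 5 it measured 1.02, 1.62, 0.35, 0.73 and -0.69, against -2.02, -0.38, -1.79, 0.44 and -0.72 in 3-month control mice 1 to 5. Of the knockouts 4 of 5 at each age lay above the pool, and of the controls 1 of 5 at each age. The difference was 1.16 ± 0.47 at 5 months (SE, adjusted p = 0.389) and 1.50 ± 0.47 at 3 months (SE, adjusted p = 0.344). Its other probe gave 0.96 ± 0.31 at 5 months (SE, adjusted p = 0.283) and 0.94 ± 0.31 at 3 months (SE, adjusted p = 0.381). Both orientations had the same direction, with 1.09 in Cy5 and 1.53 in Cy3 at 5 months, and 1.82 in Cy5 and 1.18 in Cy3 at 3 months. The 3-month value was uneven between array series, with 2.72 ± 0.56 within series C and 0.27 ± 0.53 within series D (SE).

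The serine synthesis genes gave values near or below 0. Phgdh, the entry enzyme, was at -0.20 ± 0.28 at 5 months and 0.08 ± 0.28 at 3 months (SE). Psat1, the aminotransferase that follows it, was at -0.30 ± 0.39 at 5 months and -0.28 ± 0.39 at 3 months (SE). The other Psat1 probe was at -0.267 ± 0.412 at 5 months and -0.622 ± 0.412 at 3 months (SE). Of 16 further ATF4 targets, all measured, 0 were called at either age, and 2 higher and 0 lower reached an unadjusted p under 0.05 at each age. Of all probes, 7.07% were higher and 3.41% lower at that level at 5 months, and 2.14% and 5.82% at 3 months. The median difference of the 16 targets was 0.08 at 5 months and 0.01 at 3 months. Slc7a2, a carrier of arginine and lysine, was below the pool in all 20 mice on its first probe, and its 4 probes differed by -0.52 to 0.44 at 5 months.

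The start region of Asns is shown because its RNA had the largest differences, and that of Got1 because it was the other member with the amino acid response element that ATF4 binds. Capitals mark the match to TGATGNAAN, searched on both strands in 250 bases before to 50 after the start of each gene. The lines give the 250 bases before the start, 5′ to 3′ on the strand of the gene, from RefSeq, GRCm38.p6; Asns is at chr6:7693210-7693459 and Got1 at chr19:43524606-43524855, both on the minus strand.
Asns: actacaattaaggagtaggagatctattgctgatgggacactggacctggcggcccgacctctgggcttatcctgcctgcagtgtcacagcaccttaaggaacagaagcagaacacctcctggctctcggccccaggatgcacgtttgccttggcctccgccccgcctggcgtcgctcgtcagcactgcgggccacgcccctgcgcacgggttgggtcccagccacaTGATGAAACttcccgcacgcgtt
Got1: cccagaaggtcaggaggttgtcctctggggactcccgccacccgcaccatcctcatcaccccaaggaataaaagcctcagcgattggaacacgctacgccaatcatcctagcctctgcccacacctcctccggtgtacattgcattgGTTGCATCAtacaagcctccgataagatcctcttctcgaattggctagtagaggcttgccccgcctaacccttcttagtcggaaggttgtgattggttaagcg
The match in Asns begins 23 bases before the start and reads along the gene, and the match in Got1 begins 103 bases before it and reads on the other strand.

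A start region was matched by symbol for 30 of the 39 genes, which together have 33 start regions. Shares of members count genes here, while the background counts start regions, so the units differ. TGATGNAAN was present in 2 of 30 (6.67%), against 3.95% of 32851 mouse start regions. TGACG, the short cyclic AMP element, was in 4 of 30 (Aass, Asns, Csad and Nags; 13.3% against 20.8%), and the full TGACGTCA in 0 (1.79% of all). TTGCNNAA, a C/EBP element, was in 3 of 30 (Aass, Hal and Hgd; 10.0% against 10.8%). The glucocorticoid receptor element was in Gnmt alone (3.33% against 0.475%), and the HNF4 element CAAAGTCCA and the HNF1 element were in 0 of 30 (0.475% and 0.00913% of all). A match is a string of letters and shows no binding.

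By position, 3 members lie on chromosome 6, which also carries Met: Aass 5.5 Mb, Asns 9.8 Mb and Uroc1 72.8 Mb from it, in GRCm38.p6. Chromosome 17 carries Cbs, Gnmt and Haao, which are 3 of the 5 genes with the smallest p at 5 months. They lie apart, starting at bases 31612623, 46725664 and 83831348. Their 5-month differences were 0.74, 0.76 and 0.52, and their 3-month differences 0.24, 0.10 and -0.18. Within array series A the 5-month differences were 0.26, 0.67 and 0.70. They were noticed after ranking by p, and a part of position was not tested.

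Tested directly, the 5-month genotype difference minus the 3-month difference was above 0 for 27 of 39 genes (57.4% of all probes), with a median of 0.31 against 0.06 over all probes. By limma 0 of 39 were called (background 0.0% of probes), and 10 reached an unadjusted p under 0.05, 9 with a larger 5-month value (5.61% of all probes) and Bckdhb with a smaller one (2.14%). That is 25.6% of the genes against 7.74% of all probes. For no single enzyme was the genotype difference shown to differ between the ages.

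Related genes outside the set gave a similar picture. Of 53 other genes of amino acid and urea pathways 49 were measured. Of these, 42 lay above 0 at 5 months (52.3% of all probes) with a median of 0.18. Oat, the mitochondrial enzyme that links ornithine to proline and glutamate, was higher in 5-month knockouts than in 5-month controls and passed the test. It averaged 1.66 ± 0.22 in 5-month knockouts and 0.62 ± 0.39 in 5-month controls (SD, n = 5 each), a difference of 1.03 ± 0.20 (SE, adjusted p = 0.0478). None of the others passed, where 0.145% of all probes did. At an unadjusted p under 0.05 were 13 higher (7.07% of all probes) and 1 lower (3.41%). At 3 months 0 of 49 passed (0.0355% of all probes did). At an unadjusted p under 0.05 were 2 higher (2.14% of all probes) and 3 lower (5.82%). Oat was at 1.69 ± 0.36 in 3-month knockouts and 0.92 ± 0.29 in 3-month controls (SD, n = 5 each), a difference of 0.77 ± 0.20 (SE, adjusted p = 0.221). Its 5-month difference minus its 3-month difference was 0.26 ± 0.29 (SE, adjusted p = 0.877). Of 11 regulators of such genes, 0 were called at either age. At an unadjusted p under 0.05 there were 0 at 5 months and 2 lower at 3 months (5.82% of all probes). These were Gcgr, the glucagon receptor, at -0.34 ± 0.15 (SE, adjusted p = 0.559) and Cebpa at -0.37 ± 0.17 (SE, adjusted p = 0.609).

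Markers of several cell types were also higher in 5-month knockouts, and their part in the enzymes' difference was not tested. Of the hepatocyte, Kupffer cell and endothelial markers 0 were called by limma. Of all probes at 5 months, 52.3% lay above 0, 7.07% were higher at an unadjusted p under 0.05 and 0.145% were called. Of 10 hepatocyte markers 9 were higher in 5-month knockouts, with a median difference of 0.17 and 2 at an unadjusted p under 0.05; their median per mouse ran from -0.07 to 0.16 in knockouts and from -0.56 to 0.04 in controls. Of 11 Kupffer cell and macrophage markers 9 were higher with a median difference of 0.50 and 7 at an unadjusted p under 0.05; the medians per mouse ran from -0.09 to 0.54 in knockouts and from -0.76 to -0.08 in controls. Of 9 endothelial markers 8 were higher with a median difference of 0.36 and 5 at an unadjusted p under 0.05, with medians per mouse from -0.05 to 0.17 in knockouts and from -0.50 to -0.16 in controls. Of 8 stellate cell markers, with a median difference of 0.005, 4 were higher and 1 of them, Dcn, was called at 0.55 (adjusted p = 0.0478), with medians per mouse from 0.13 to 0.26 in knockouts and from -0.29 to 0.03 in controls. Bile duct and lymphocyte lists had median differences of 0.18 and 0.05, with 0 called. At 3 months the median differences of these 6 lists lay between -0.10 and 0.08.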

How the data were processed

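RNA of 20 mouse livers was measured on 38 2-colour arrays against a common pool. The deposited table holds the log2 ratio of the dyes for 36607 probes; invalid features were excluded and each array was normalised by the authors to the 50th percentile of its signals, per the series' design text. Background handling and the numerator are unstated in those sources. The number of mice, 5 per group, limits the precision.

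Arrays were turned to liver over pool, a probe-specific dye effect (from mice with both orientations) was subtracted, and arrays of a mouse were averaged. limma 3.58.1 in R 4.3.3 (lmFit, eBayes) was fitted over all 20 mice with 1 mean per group, and p-values were Benjamini-Hochberg adjusted over all probes, with 0.05 as threshold. The fit was tested on simulated data. The methods' t-test was run at its threshold of 0.001, without its random variance model.

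Members were matched to the platform's gene symbols; 9478 probes have no symbol and 203 have several. The members, gene lists and tests were chosen with earlier results of these data known. Mice were described singly for the 5 members with the smallest p in each contrast; from other lists the called genes and the 3 with the smallest p could be named. Tat, Ahcy and others outside that rule were singled out after their values were seen. Repeat numbers were compared as possible pairs: same-numbered mice deviated together with r from -0.18 to 0.17 at 5 months and -0.07 to 0.11 at 3 months, so they were not treated as pairs. Alternatives covered centring, quantile normalisation, array series, single orientations, arrays as units, the repeat number as a block, and each mouse left out.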

Additional observations from a re-analysis of the deposited data

Results flagged for a closer look

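Each group of 5 mice was examined for a mouse whose gap to the nearest other exceeded Dixon's critical value, for 160 groups of values, and 7 stood out, where chance gives about 1 in 20. In 5-month knockouts, Agxt was at -0.31 in mouse 2, with the others at 0.22 to 0.38, and Psat1 at 0.25 in mouse 3, with the others at -0.11 to -0.02. These mice are those with 1 array each. In 3-month controls, Nags was at 0.75 in mouse 3 (others 0.42 to 0.46), Hpd at 1.01 in mouse 4 (others 0.76 to 0.83) and Fah at -0.27 in mouse 5 (others 0.52 to 0.80). In 3-month control mouse 1, Kmo was at -0.70 (others -0.10 to 0.03) and Bckdhb at 0.36 (others -0.42 to -0.22).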

How the results depend on the processing

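Many small differences of single enzymes changed sign: 32 of 39 kept theirs within array series A or with series as a covariate at 5 months, and 30 within series C and 32 within series D at 3 months; under the other alternatives 34 to 39 did. The count of enzymes called at 5 months (0) was 4 after quantile normalisation (Agxt, Hpd, Cbs and Haao, adjusted p 0.0154 to 0.0492; 2.09% of all probes were called there) and 8 with arrays as units and the mouse as a random block (1.41% of all probes); with each mouse left out in turn it ran from 0 to 1. With arrays as units the counts were 2 at 3 months (0.18% of all probes) and 1 for the difference between ages (0.407%). The methods' t-test called 1 at 3 months, for which no share of all probes is given here. Leaving out single mice gave 0 at 3 months and 0 for the difference between ages. The number at an unadjusted p under 0.05 at 5 months (19) was 9 within array series A (14.0% of all probes), 12 there with arrays centred (14.5%), 11 in liver-in-Cy5 arrays alone (11.4%), and 12 to 19 without single mice. At 3 months (4) it was 7 with arrays as units (8.14%) and 4 to 5 without single mice. For the difference between ages (10) it was 18 with arrays as units (9.47%) and 6 to 16 without single mice, 6 without 5-month control mouse 1 and 16 without 5-month control mouse 3. The median difference at 5 months (0.25) was 0.47 within series A with arrays centred and 0.23 to 0.35 without single mice; at 3 months (0.08) it was -0.039 within series D and 0.04 to 0.10 without single mice. The median of the difference between ages (0.31) ran from 0.22 to 0.43 without single mice. Genes higher in knockouts numbered 28 to 34 at 5 months and 22 to 26 at 3 months, and genes with a larger difference at 5 months 26 to 30, without single mice. With the repeat number as a block 0 enzymes were called, and it changed no call. An unadjusted p under 0.05 was then reached by 15 at 5 months (10.3% of all probes) and 5 at 3 months (8.52%). For the difference between ages 10 reached it (7.92%). The array of control mouse 4 with its sign turned, and the centred series A, were chosen after seeing the data. Turning that sign gave a 5-month median of 0.20 and 16 genes at an unadjusted p under 0.05. Shares of all probes are not given for that fit or for the fits without single mice, so their counts have no comparison. Where values moved, the cause was not tested, and no dim-probe filter could be set because signal is not in the values.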
